A study of Mus musculus with 2 samples.

Results

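The genes described here encode 9 giant and structural proteins of the sarcomere, the contractile unit of striated muscle: Ttn, Neb, Actn2, Actn3, Mybpc1, Myom1, Myom2, Tcap and Des. They were taken by name, through the Ensembl identifiers of the deposited tables. The rule uses no measured value, though the genes were proposed with earlier results of these data known. They are 9 of 43346 Ensembl genes in each gene table, and their 59 transcripts are listed in the transcript tables.

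In the sarcomere, actin filaments are anchored at the Z-disc and myosin filaments are held in register at the M-band. Titin, the product of Ttn, spans from the Z-disc to the M-band and acts as a molecular spring and scaffold, and nebulin, the product of Neb, runs along the thin filament. The alpha-actinins Actn2 and Actn3 crosslink actin at the Z-disc, and Tcap (telethonin) caps the Z-disc end of titin. Mybpc1, the slow-type myosin-binding protein C, sits on the thick filament, and the myomesins Myom1 and Myom2 crosslink myosin and titin at the M-band. Desmin, the product of Des, is the muscle intermediate filament that links neighbouring Z-discs. In the embryonic limb these proteins are made by differentiating myoblasts and myotubes, which arise from cells that migrate in from the somites.

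The tissue was limb of B6NCrl mouse embryos aged 14.5 days, and its total RNA was sequenced in 2 libraries, given as biological replicates 1 and 2 of 1 group, for which the labels name no treatment and no altered allele. For each library 10 ng of RNA above 200 nt was used and spike-in RNA added, and each sample is described as 4 limbs of a pup. Both samples carry the same donor identifier and pup number with different collection days. The label gives the sex as pooled male and female, whereas 4 Y-linked genes had 6631 counts in replicate 1 and 0 in replicate 2. RNA of a single animal would not give both values, so the libraries were not both made from the same single animal. The labels do not settle whether animals were pooled or whether the libraries share a litter. The gene levels below are therefore given for each library as well. Expected counts of Ensembl genes summed to 32384779 in replicate 1 and 31170323 in replicate 2. With 1 group there is no comparison between conditions. A test on the reads of the libraries compares those libraries only.

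The labelled tissue held skeletal muscle RNA. Of 8 myogenic marker genes, 7 had a mean of 1 TPM or more (a level scaled for transcript length and for the total of the library), and their summed level was 259.67 and 197 TPM in replicates 1 and 2. They were led by Myog, which drives terminal myoblast differentiation, at 115 and 90.5 TPM, Mymk, which is needed for myoblast fusion, at 54.3 and 36.7 TPM, and Myod1, a determination factor, at 36.9 and 32.5 TPM. Of 8 heart markers 2 reached a mean of 1 TPM. The cardiac factor gene Nkx2-5 was at 0 counts in both libraries, which allows up to 3 counts in each. The atrial myosin light chain gene Myl7 stood at 0.710 and 0.760 TPM and the cardiac troponin gene Tnni3 at 2.13 and 2.49 TPM. Sln, the sarcolipin gene, stood at 218 and 148 TPM and is also known to be expressed in embryonic skeletal muscle, so the summed level of the heart list, 222 and 154 TPM, was almost all Sln. Smooth muscle markers summed to 336 and 267 TPM, with 4 of 6 at a mean of 1 TPM or more. They were led by Acta2 at 251 and 189 TPM, Smtn at 61.6 and 55.4 TPM and Tagln at 20.5 and 19.0 TPM. Acta2 is also expressed by embryonic skeletal muscle. The smooth muscle myosin gene Myh11 was at 1.10 and 0.630 TPM and the smooth muscle coactivator gene Myocd at 0.350 and 0.550 TPM.

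All 9 genes were detected in both libraries, over a range of 26.1-fold in mean level. Actn2 was the highest, with 139 TPM in the first library and 94.8 TPM in the other. Neb followed at 95.1 and 74.5 TPM, Ttn at 74.6 and 61.4 TPM, Des at 59.5 and 44.9 TPM and Mybpc1 at 46.0 and 38.8 TPM. A lower set held Tcap at 13.9 and 8.40 TPM, Myom1 at 12.1 and 8.04 TPM, Actn3 at 9.43 and 10.4 TPM and Myom2 at 5.02 and 3.91 TPM. Replicate 1 was the higher library for 8 of the 9 genes, and Actn3 was the exception. In the order of mean levels, Ttn and Des, Mybpc1 and Tcap, and Actn3 and Myom2 were neighbours whose values did not overlap over the libraries. The values of the other 5 pairs of neighbours overlapped, so that neither Actn2 and Neb nor Neb and Ttn were separated beyond their spread, although Actn2 lay above Neb and Neb above Ttn within each library. The values of Actn2 and Ttn did not overlap. Myom1 and Actn3 changed places between the libraries. Summed, the 9 genes stood at 454 and 345 TPM (399.8 ± 77.3, SD, n = 2). They held 0.158% and 0.116% of the expected counts of Ensembl genes. Among 21474 protein-coding genes ranked by mean level, Actn2 was at place 1190, Neb at 1688, Ttn at 2163 and Myom2, the lowest, at 10937.

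**Figure D1:**
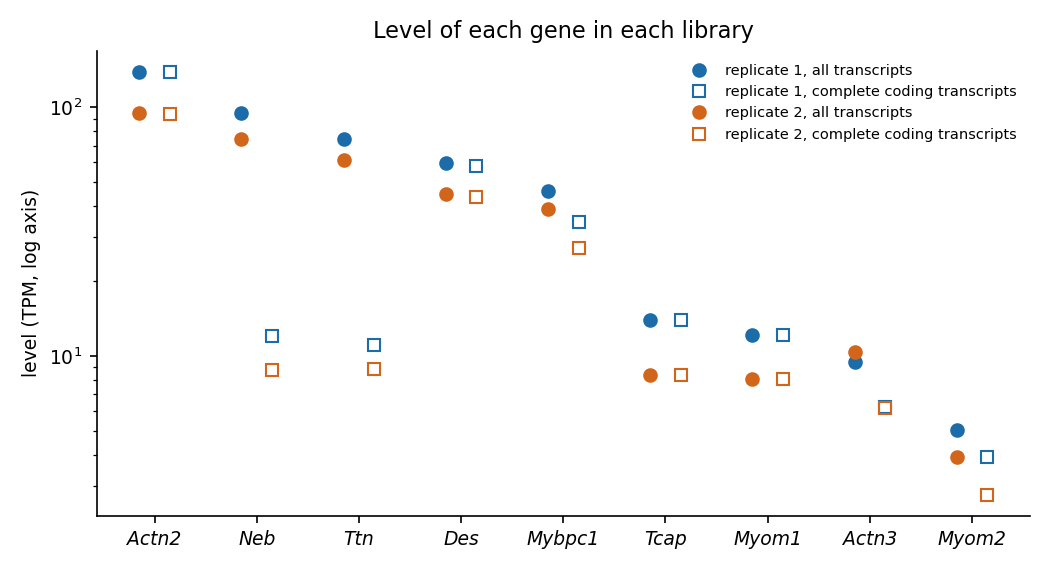
Level of each of the 9 genes in each library in TPM on a log axis, genes in order of mean level; filled circles give the level over all transcripts and open squares the level over transcripts with a complete coding sequence, blue for replicate 1 and orange for replicate 2. The squares lie near the circles for Actn2, Des, Tcap and Myom1 and far below them for Neb and Ttn, where all transcripts exceed complete ones 8.15-fold and 6.81-fold.

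A gene's TPM is the sum over its annotated transcripts, and a short model turns the same number of reads into a higher TPM than a long one. The 59 transcripts were therefore grouped by the reference annotation into complete coding models (typed protein-coding, with start and stop codon and both ends found), partial coding models and models of a noncoding type such as a retained intron. Of the 59, 19 were complete, 21 partial and 19 of a noncoding type, and 5 were listed at 0 in both libraries. Complete models held all of the TPM of Tcap and Myom1, 99.6% ± 0.17 of Actn2 and 97.1% ± 0.25 of Des (SD, n = 2 here and below). The share was 74.4% ± 5.2 for Myom2, 72.6% ± 3.5 for Mybpc1 and 62.9% ± 4.4 for Actn3. It was 14.7% ± 0.31 for Ttn and 12.2% ± 0.61 for Neb. In expected counts, which do not divide by length, the same models held 85.1% ± 0.69 of Ttn and 72.1% ± 1.0 of Neb. For scale, over 13335 protein-coding genes that averaged at least 1 TPM and had a complete model, the median share of TPM in complete models was 97.0%, and 239 genes (1.79%) had a share at or below that of Ttn and 191 (1.43%) at or below that of Neb.

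**Figure D2:**
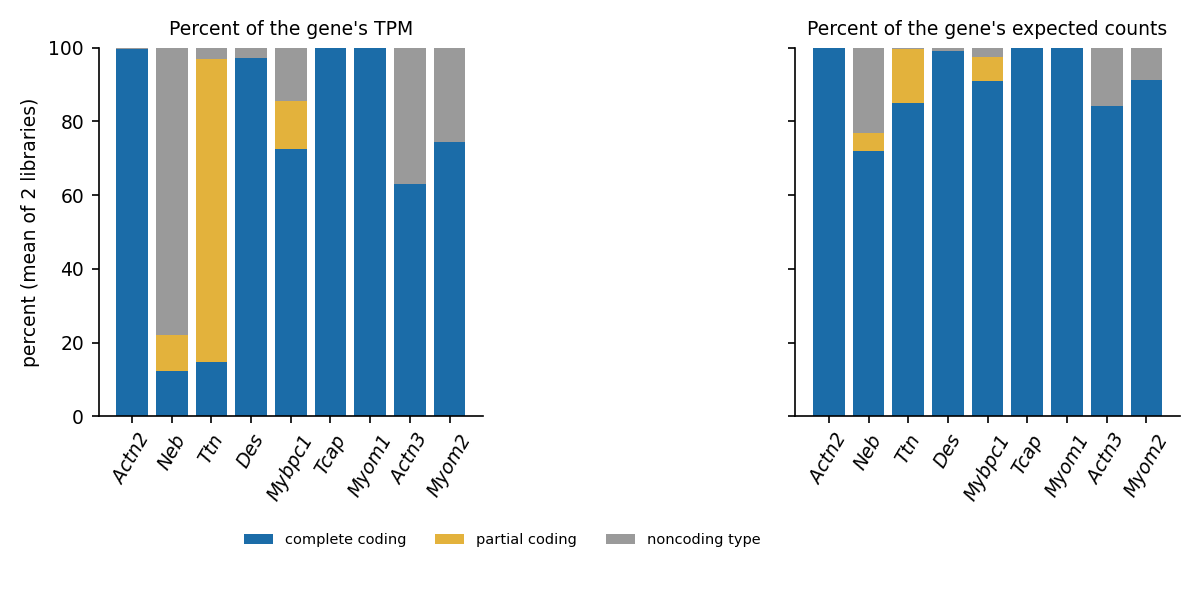
Share of each gene's TPM (left) and expected counts (right) held by complete coding, partial coding and noncoding-type transcripts, as the mean of 2 libraries in percent. Ttn and Neb have the lowest complete shares of TPM, 14.7% and 12.2%, but 85.1% and 72.1% of counts.

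Titin (ENSMUSG00000051747.10, mm10 chr2:76703980-76982547, minus strand) had 25 transcripts in the tables. The leading one by TPM was Ttn-215, a model of 2159 nt and 12 exons that covers only the 5′ end of the gene and lacks its coding end, at 35.8 and 28.7 TPM, or 47.4% ± 0.83 of the gene. All of its 2159 bases also lie within complete models, so no base tells it apart by position alone. It drew 1697 and 1271 counts, 6.98% of the gene's. The second was Ttn-213, an internal partial model of 3406 nt, at 8.77 and 7.39 TPM. The third, Ttn-201, is a complete model of 81843 nt and 192 exons with a coding sequence of 80658 nt. It stood at 5.44 and 4.40 TPM, which is 7.23% ± 0.08 of the TPM but 42.2% of the counts. Ttn-205, named after its value was seen, is a complete model of 101674 nt and 313 exons at 4.07 and 3.09 TPM, with 38.0% of the counts. By counts, then, the leading titin transcript was Ttn-201, with 10220 and 7718 counts, and not Ttn-215.

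Titin is known for extensive splicing, and the long complete models differ in the exons they carry. Ttn-205 holds 22492 bases in 124 blocks that Ttn-201 lacks, of which 22400 are coding. Ttn-201 holds 2661 bases in 3 blocks that Ttn-205 lacks, the largest of them 2646 bases at chr2:76907308-76909953. Neither was matched to a named titin isoform. Ttn-201 was the higher of the pair in both libraries, and their values did not overlap.

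Nebulin (ENSMUSG00000026950.12, chr2:52136647-52378474, minus strand) had 11 transcripts. The leading one by TPM was Neb-204, at 63.5 and 52.4 TPM, or 68.5% ± 2.6 of the gene. It is typed as a processed transcript with no coding sequence, and its 1000 nt in 10 exons cover bases 309 to 1226 of the longest nebulin model, which has 22489 nt. Its first exon, chr2:52335681-52335762, is the only part of it outside the complete models. That exon is shown in capitals with the next 15 bases of the transcript in lower case (reference annotation GENCODE M21, GRCm38, written 5′ to 3′), because it is the stretch by which reads of the leading nebulin model can be told from those of the coding models.
Neb-204 exon 1: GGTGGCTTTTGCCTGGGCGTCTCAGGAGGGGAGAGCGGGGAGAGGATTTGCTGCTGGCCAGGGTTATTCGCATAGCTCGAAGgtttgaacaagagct

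The remaining 918 bases of Neb-204 are shared with complete models, and the deposited tables do not say how many of its 1314 and 1014 counts touched the first exon. The second transcript was Neb-208, also a processed transcript, near the 3′ end of the gene, at 9.57 and 5.93 TPM. The third was Neb-203, a complete model of 21456 nt and 152 exons, at 5.64 and 3.60 TPM. It held 5.38% ± 0.77 of the TPM and 35.0% of the counts, and led the gene by counts. Neb-202, named after its value was seen, is the longest complete model with 157 exons and held 29.0% of the counts. Neb-203 has a coding exon of 93 nt, chr2:52156355-52156447, that Neb-202 lacks, and Neb-202 has 822 coding bases that Neb-203 lacks.

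**Figure D3:**
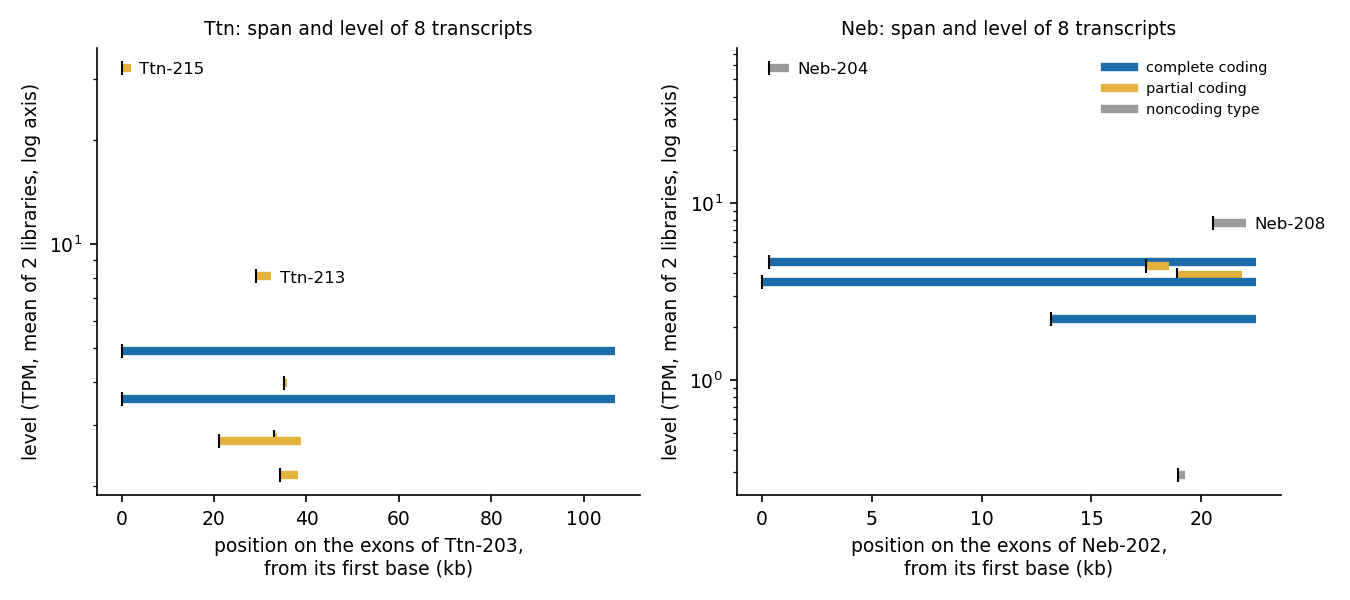
Span and level of the 8 transcripts of highest mean TPM of Ttn (left) and Neb (right): the horizontal axis is the position in kb on the exons of the longest complete model, from its first base, and the vertical log axis is the mean TPM of 2 libraries; colours give the transcript class and black ticks the first base of each. The long complete models lie below short models such as Ttn-215 (32.3 TPM) and Neb-204 (57.9 TPM), which each cover a small stretch near the 5′ end.

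Counted over complete models alone, Ttn stood at 11.1 and 8.86 TPM and Neb at 12.0 and 8.78 TPM. Over all transcripts the ratio of Ttn to Neb, taken as here throughout on log2(TPM + 0.1), was −0.35 and −0.28 (−0.31 ± 0.05), and over complete models it was −0.05 ± 0.09. Over all transcripts typed protein-coding, partial ones included, the order was reversed at 1.81, because the leading nebulin model is not so typed while the leading titin model is. The order of these genes therefore differed by measure. By mean level over complete models, Ttn moved from place 3 of the 9 to place 7 and Neb from place 2 to place 5, behind Actn2 (138 and 94.2 TPM), Des (57.9 and 43.5), Mybpc1 (34.6 and 27.2) and Tcap (13.9 and 8.40). The choice of complete models was made after the data were seen.

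Of the Z-disc crosslinkers, the alpha-actinin gene Actn2 (ENSMUSG00000052374.10, chr13:12269426-12340760, minus strand) exceeded Actn3 (ENSMUSG00000006457.3, chr19:4861216-4877909, minus strand) by 3.86 on the log2 scale in replicate 1 and 3.18 in replicate 2, a mean of 3.52 ± 0.48 or 11.5-fold. Actn3 is the form of adult fast fibres. Over complete models the difference was 4.18 ± 0.39, because 37.1% ± 4.4 of the TPM of Actn3 was in Actn3-202. This is a retained-intron model of 982 nt at 3.20 and 4.17 TPM. Of its bases 968 also lie within the complete model and 14 outside it, and it drew 65 and 79 counts, 15.8% of the gene's. Actn3-201, the coding model of Actn3, was at 6.22 and 6.20 TPM. Actn2 also exceeded Actn1, the non-muscle paralog, by 2.54 and 1.86 (2.20 ± 0.48), with Actn1 at 23.8 and 26.0 TPM. Actn2 was mostly Actn2-201, at 111 and 88.0 TPM (86.3% ± 9.2). Actn2-203, which has the same 2682 nt of coding sequence and lacks 93 noncoding bases, was at 27.5 and 6.24 TPM. The deposited credibility bounds for Actn2-203, 12.2 to 43.2 TPM and 1.48 to 16.9 TPM, overlapped, so the libraries were not separated for this model. The third model of Actn2, of a noncoding type, was under 1 TPM in both libraries.

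Tcap (ENSMUSG00000007877.2, chr11:98383811-98384953, plus strand) has 1 transcript of 948 nt and 2 exons, at 272 and 153 counts the fewest of the 9 genes. Against its binding partner titin, Tcap had a log2 ratio of −2.41 and −2.85 (−2.63 ± 0.31) over all transcripts. This was reversed to 0.13 ± 0.28 over complete models, and to 0.13 ± 0.27 in counts per kb of the longest complete model, so that by these measures the genes did not differ beyond the spread of the libraries.

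On the thick filament, Mybpc1 (ENSMUSG00000020061.13, chr10:88518279-88605152, minus strand) was the most abundant of the 3 myosin-binding protein C genes. The fast-type gene Mybpc2 had 9 and 3 counts and the cardiac gene Mybpc3 9 and 5 counts, against 3301 and 2445 for Mybpc1. Mybpc1 exceeded Mybpc2 by 7.78 and 8.12 (7.95 ± 0.24) and Mybpc3 by 7.85 and 7.93 (7.89 ± 0.05) on the log2 scale. These sizes rest on few counts of the paralogs and move with the 0.1 TPM added before taking logs. Mybph, the related myosin-binding protein H gene, stood at 88.2 and 71.4 TPM, above Mybpc1 in both libraries.

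The leading Mybpc1 transcript was Mybpc1-202 with 57.0% ± 8.1 of the TPM, at 28.9 and 19.9 TPM. Mybpc1-201 followed with 15.7% ± 4.7, at 5.69 and 7.35 TPM, and the retained-intron model Mybpc1-203 with 11.9% ± 3.4, at 4.35 and 5.55 TPM. Mybpc1-202 was lower in replicate 2, with deposited credibility bounds of 25.5 to 30.4 TPM and 16.6 to 21.7 TPM that did not overlap. The other pair was higher in replicate 2, but the libraries were not separated for either model, as the bounds overlapped. They were 3.41 to 8.24 TPM and 4.97 to 9.65 TPM for Mybpc1-201, and 2.29 to 6.45 TPM and 3.50 to 7.86 TPM for Mybpc1-203. The coding models Mybpc1-202 and Mybpc1-201 each hold a coding exon that the other lacks. These are shown in capitals, between 15 transcript bases on either side in lower case (GENCODE M21, GRCm38, minus strand, 5′ to 3′). The first is exon 3 of 29 of Mybpc1-202, chr10:88582007-88582048, whose 42 nt are a multiple of the codon length. The other is exon 27 of 29 of Mybpc1-201, chr10:88521277-88521335, whose 59 nt are not, so that the coding sequence after it is read differently.
Mybpc1-202 exon 3: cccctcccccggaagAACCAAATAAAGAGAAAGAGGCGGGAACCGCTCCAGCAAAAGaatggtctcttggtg
Mybpc1-201 exon 27: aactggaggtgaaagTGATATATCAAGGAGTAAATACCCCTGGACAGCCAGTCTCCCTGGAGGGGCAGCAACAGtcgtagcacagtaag

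At the M-band, Myom1 (ENSMUSG00000024049.10, chr17:71002633-71126856, plus strand) exceeded Myom2 (ENSMUSG00000031461.4, chr8:15057653-15133541, plus strand) 2.38-fold and 2.03-fold in the libraries, a mean log2 ratio of 1.14 ± 0.16, and of 1.55 ± 0.07 over complete models. Myom3, the third myomesin gene, was at 3.90 and 1.92 TPM, below Myom1 by 1.61 and 2.01 (1.81 ± 0.29). Myom2-201, the only complete model of Myom2, held 74.4% ± 5.2 of its TPM, at 3.92 and 2.77 TPM. All 3 transcripts of Myom1 are complete. Myom1-203 led with 78.3% ± 8.1, at 10.2 and 5.84 TPM, Myom1-202 held 16.7% ± 7.6, at 1.36 and 1.77 TPM, and Myom1-201 the rest. The M21 span of Myom1 overlaps Myl12a on the opposite strand, at 584 and 569 TPM. Neither the labels nor the file headers say whether the counting used strand. Whether the overlap reaches any Myom1 transcript counted here, and the share of Myom1 reads it could touch, were not tested.

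Myom1 is known for an embryonic splice form, EH-myomesin, with an added segment in the middle of the protein. Myom1-202 holds an exon of 294 nt that Myom1-203 lacks, exon 18 of 38 at chr17:71082203-71082496. All of it is coding and its length is a multiple of the codon length. It is shown because it sets the models apart. Whether it is the exon of that splice form was not tested (GENCODE M21, GRCm38, plus strand, 5′ to 3′).
Myom1-202 exon 18: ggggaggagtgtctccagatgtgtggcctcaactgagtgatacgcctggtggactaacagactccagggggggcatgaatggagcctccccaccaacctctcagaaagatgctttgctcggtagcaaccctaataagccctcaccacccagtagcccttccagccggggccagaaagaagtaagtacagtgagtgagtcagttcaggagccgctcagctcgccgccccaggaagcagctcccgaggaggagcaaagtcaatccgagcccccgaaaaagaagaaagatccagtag

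The model with this exon drew 172 counts in replicate 1 and 209.63 in replicate 2, and the leading model without it 1216 and 653 counts. The deposited credibility bounds for Myom1-202, 0.70 to 2.31 TPM and 1.04 to 2.69 TPM, overlapped, so the libraries were not separated for this model. Those for Myom1-203, 8.47 to 10.8 TPM and 4.18 to 6.42 TPM, did not overlap. The model without the exon was higher in both libraries.

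Desmin (ENSMUSG00000026208.9, chr1:75360329-75368579, plus strand) was almost all Des-201, a model of 3028 nt and 9 exons, at 57.9 and 43.5 TPM (97.1% ± 0.26). The retained-intron model Des-202 was at 1.56 and 1.39 TPM. Against Vim, the vimentin gene of mesenchymal cells and myoblasts, at 951 and 966 TPM, Des was lower by −3.99 and −4.42 on the log2 scale, or 18.5-fold. Over complete models the log2 ratio was −3.53 ± 0.28. The antisense gene Gm15179 at Des had 2 and 1 counts.

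Promoter sequence was at hand for 5 of the 9 genes: Des, Ttn, Mybpc1, Actn2 and Myom1 (RefSeq, GRCm38.p6). The 250 bases before each start were searched on both strands for motifs of muscle transcription factors. The E-box CANNTG, the letters bound by the MyoD family, was in 5 of 5, against 66.2% of 32851 promoters of the same length. Its narrower form CAGCTG, which overlaps it, was in 2 (13.0% of all promoters). The site of MEF2 factors was in 1 (2.92%), and the CArG box of serum response factor in 1 (1.47%). TATAAA and the MCAT letters CATTCC were in 0 (12.4% and 12.6%). In Des, CAGCTG began 36 bases before the start and a further CANNTG 220 bases before it. In Ttn the MEF2 site began 166 bases and the E-box 138 bases before the start. In Mybpc1, CAGCTG began 87 bases and a further E-box 57 bases before it. Actn2 held E-boxes at 245, 84 and 48 bases, and Myom1 at 231, 130 and 55 bases with its CArG box at 99 bases. A match gives letters only, and no binding was measured. The windows of Des, Ttn and Mybpc1 are printed as the ones with the narrower E-box or the MEF2 site, with matches in capitals, 5′ to 3′ on the strand of the gene: chr1:75360042-75360291 (plus), chr2:76982548-76982797 (minus) and chr10:88605153-88605402 (minus).
Des: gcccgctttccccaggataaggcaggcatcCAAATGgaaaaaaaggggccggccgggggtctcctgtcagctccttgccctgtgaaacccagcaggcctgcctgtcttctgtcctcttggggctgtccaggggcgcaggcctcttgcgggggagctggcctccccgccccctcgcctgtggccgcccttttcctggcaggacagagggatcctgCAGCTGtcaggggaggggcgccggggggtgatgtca
Ttn: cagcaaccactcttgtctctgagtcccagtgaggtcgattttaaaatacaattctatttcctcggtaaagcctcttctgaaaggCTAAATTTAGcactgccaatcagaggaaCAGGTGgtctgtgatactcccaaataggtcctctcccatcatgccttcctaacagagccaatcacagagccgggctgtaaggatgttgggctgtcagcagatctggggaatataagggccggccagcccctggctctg
Mybpc1: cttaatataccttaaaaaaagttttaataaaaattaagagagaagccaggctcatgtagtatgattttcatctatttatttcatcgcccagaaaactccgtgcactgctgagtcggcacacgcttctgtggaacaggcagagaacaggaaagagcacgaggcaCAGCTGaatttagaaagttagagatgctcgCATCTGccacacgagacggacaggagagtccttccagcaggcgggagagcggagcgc

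Reads of these genes were fewer in replicate 2, least so for Actn3. Expected counts in replicates 1 and 2 were 24589 and 18025 for Ttn, 9211 and 5896 for Actn2, and 7371 and 5096 for Neb. They were 3928 and 2759 for Des, 3301 and 2445 for Mybpc1, and 1457 and 911 for Myom1. The genes of fewest counts were Myom2 at 491 and 324, Actn3 at 463 and 449, and Tcap at 272 and 153. After scaling for library size by TMM (trimmed mean of M-values), the log2 ratio of replicate 2 over replicate 1 was lowest for Tcap, at −0.81 (95% Clopper-Pearson interval −1.10 to −0.52, counting error only). It was −0.66 for Myom1, −0.62 for Actn2, −0.58 for Myom2, −0.51 for Neb, −0.49 for Des, −0.43 for Ttn and −0.41 for Mybpc1. Actn3 stood at −0.02 (−0.21 to 0.17).

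By a two-sided exact binomial test on the reads with Benjamini-Hochberg adjustment over all genes, 8 of the 9 genes were lower in replicate 2 and 0 higher, against 14.8% of 19153 genes lower and 12.7% higher. The largest adjusted p of this exact binomial test among the 8 was 3.82e-07, for Tcap, and that of Actn3 was 0.910. The interval of Actn3 did not overlap that of Actn2, −0.67 to −0.58, or of the other 7 genes. The median log2 ratio of the 9 genes was −0.51 and that of all genes tested 0.00 (−0.00062). The test covers counting error alone. The exact test of edgeR, with a dispersion estimated from the same pair of libraries (coefficient of variation 0.0992), called 0 of the 9 in either direction, against 0.491% lower and 0.177% higher of 16920 genes. At an unadjusted p under 0.05 edgeR's exact test gave 8 lower, against 4.08%. In TPM with 0.1 added, 1 of the 9, Tcap, was lower by more than 1.5-fold. The share over 15307 genes that averaged at least 1 TPM was 2.95%. Myom1, at 12.08 and 8.04 TPM, lay at this cut and was past it only without the added 0.1.

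**Figure D4:**
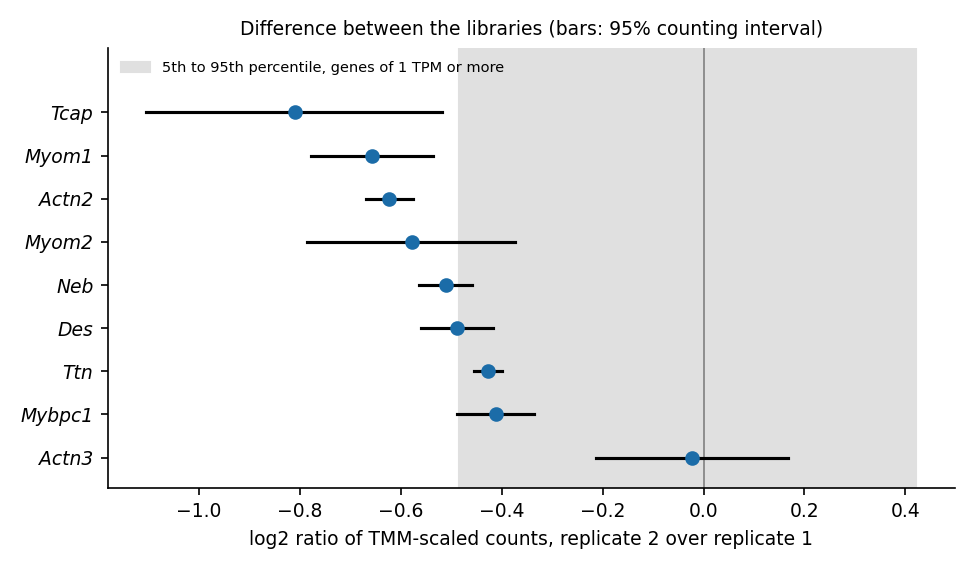
Log2 ratio of TMM-scaled counts, replicate 2 over replicate 1, for each of the 9 genes; bars give the 95% counting interval and the grey band runs from the 5th to the 95th percentile, −0.48 to 0.42, of genes averaging at least 1 TPM. Actn3 sits at the centre, and Tcap, Myom1, Actn2, Myom2, Neb and Des have points beyond the lower edge of the band.

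The same 8 genes were called with scaling by spike-in counts, total counts or DESeq2 size factors. Actn3 was called under none of these scalings, and its log2 ratio was 0.01 with total counts and 0.04 with spike-in counts. Of 8 myogenic markers, 7 were lower by the exact binomial test and 0 higher, against 14.8% and 12.7% of all genes, with a median of −0.57. The edgeR exact test made 0 calls among them, against 0.491% of all genes lower and 0.177% higher. It gave 5 lower at an unadjusted p under 0.05, against 4.08% of all genes. Genes of other cells were also lower in part. The globin genes Hba-a1 and Hbb-bs of red blood cells were at −0.65 and −0.74, and 3 of 6 smooth muscle markers were lower with Acta2 at −0.48. The cartilage gene Col2a1 was called lower at −0.07, with a TPM that was not lower (584 and 587). Acan, also a cartilage gene, was called lower at −0.26 (33.8 and 29.9 TPM), and the keratin gene Krt14 at −0.10 (386 and 374 TPM). Of 8 markers of other cell types 5 were lower and 0 higher. Their summed level was 11034 and 7528 TPM, most of it globin. Hba-a1 stood at 4371 and 2943 TPM and Hbb-bs at 5580 and 3507 TPM. Pecam1 (30.2 and 31.1 TPM), Ptprc (3.43 and 3.54 TPM) and Scx (45.9 and 50.7 TPM) were not called. In these bulk samples fewer muscle cells and less RNA per cell cannot be told apart, and the part of either, or of the Y-linked difference given above, was not tested.

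Further genes, 61 in lists of paralogs, Z-disc, thin-filament ends, M-band and titin partners, and assembly chaperones, were mostly lower in replicate 2 as well. These lists also hold broadly expressed genes such as Actn4 and Palld, so the counts are not of sarcomere genes alone. Of 60 tested by the exact binomial test, 35 were lower, 2 were higher and 23 were not called, against 14.8% of all genes lower and 12.7% higher, with a median log2 ratio of −0.41. The edgeR exact test called 5 of 57 tested lower and 0 higher, against 0.491% and 0.177% of all genes. These 5, named after their values were seen, were Myom3 (−0.88), Myoz1 (−1.42), Trim55 (−0.96), Ckm (−1.35) and Unc45b (−0.78).

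At the Z-disc, 15 of 22 tested genes were lower and 1 higher, against 14.8% and 12.7% of all genes, with a median of −0.40. The actin-capping gene Capzb, the highest of the list, was called lower by counts at −0.10 although its TPM was level at 209 in both libraries. Also called lower was the LIM-domain gene Pdlim7 at 124 and 113 TPM (−0.14). Fhl1, another LIM-domain gene, stood at 128 and 107 TPM (−0.34). Palld, an actin-organising gene of many cell types, was the one called higher, at 86.4 and 98.1 TPM (0.09). Myoz1, which binds calcineurin and alpha-actinin, stood at 7.32 and 2.89 TPM.

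At the thin-filament ends, 5 of 8 genes were lower and 0 higher, against 14.8% and 12.7% of all genes, with a median of −0.46. The highest of them were Klhl40 at 15.4 and 11.6 TPM, which stabilises nebulin and Lmod3, Klhl41 at 12.8 and 10.1 TPM, and the pointed-end capping gene Tmod1 at 12.1 and 7.55 TPM. Their log2 ratios were −0.49, −0.42 and −0.73.

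Of 10 M-band and titin partners, 4 were lower and 1 higher, against 14.8% and 12.7% of all genes, with a median of −0.25. The share called higher was near that of all genes. The most abundant were the autophagy receptors Sqstm1 at 169 and 178 TPM and Nbr1 at 48.8 and 55.3 TPM, neither of which was called. Ckm, the muscle creatine kinase gene, was lower at 52.6 and 21.9 TPM (−1.35). Speg, a kinase gene of striated muscle, was the one called higher, at 11.7 and 16.5 TPM (0.37).

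Among 6 chaperone genes 5 were lower and 0 higher, against 14.8% and 12.7% of all genes, with a median of −0.46. Hspb1 stood at 442 and 334 TPM (−0.48), the myosin chaperone gene Unc45b at 19.0 and 13.3 TPM (−0.78) and Hsp90aa1 at 469 and 493 TPM. Hsp90aa1 was called lower by counts at −0.12 although its TPM was higher in replicate 2, so its direction depends on the measure.

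Of 14 paralogs of the 9 genes, 6 were lower and 0 higher, against 14.8% and 12.7% of all genes, with a median of −0.18. The broadly expressed paralogs Actn4, at 218 and 227 TPM, Actn1 and Obsl1, at 82.6 and 91.1 TPM, were not called. Vim was called lower by counts at −0.10 although its TPM was the higher in replicate 2, and Myom3 was the lowest of those called. Actn2 and its non-muscle paralog Actn1 had log2 ratios between the libraries of −0.62 and 0.04. Their intervals, which cover counting error only, did not overlap. The exact test of edgeR called neither gene.

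**Figure D5:**
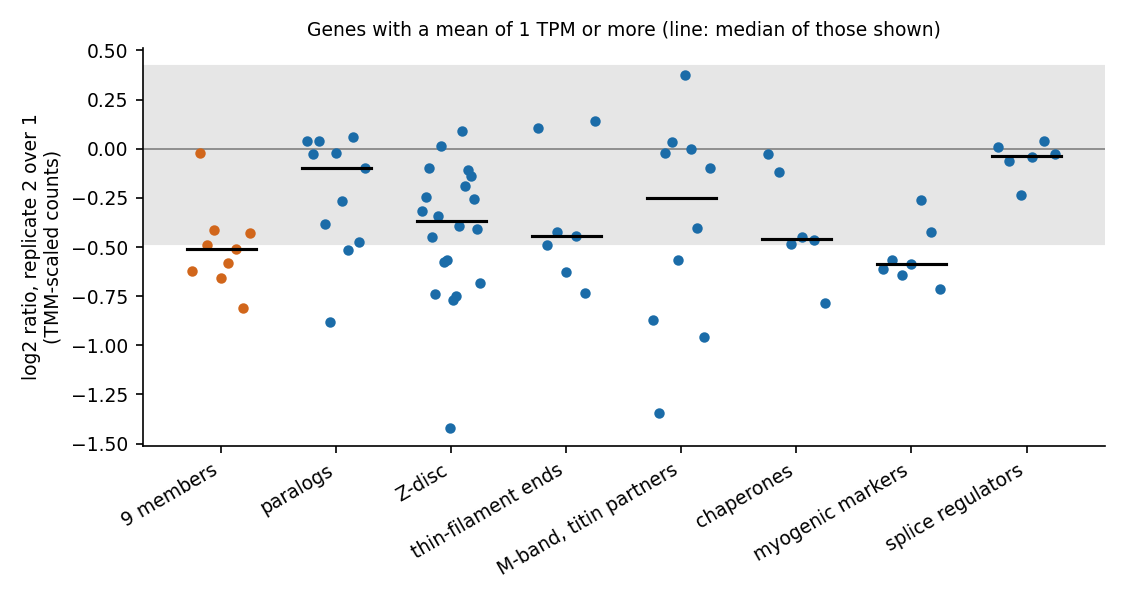
Log2 ratio of TMM-scaled counts, replicate 2 over replicate 1, for genes of each list averaging at least 1 TPM; each point is a gene, black lines are medians of the genes shown and the grey band is the 5th to 95th percentile of all such genes. The 9 genes (orange, median −0.51), thin-filament ends (−0.45), chaperones (−0.46) and myogenic markers (−0.59) lie low, while splice regulators lie near 0 (median −0.04).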

How the data were processed

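Expected counts (estimated numbers of reads, often fractional) and TPM values were deposited by the authors in tables on mm10 with the GENCODE M4 annotation, per the notes filed with each sample and the file headers. The percent of a gene's TPM in each transcript was deposited by the authors. Credibility bounds of TPM, a signal on the TPM scale, were deposited by the authors, and the sources used here give neither their level nor the aligner, the quantification program or the strand.

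Symbols, positions and transcript classes came from GENCODE M21 on GRCm38, matched by Ensembl identifier. Spike-ins (5.29% and 5.20% of counts) and 26248 numeric identifiers (17 and 27 counts) stayed out of library sizes and tests. Counts were rounded, scaled by TMM and tested in Python 3.11.15 with scipy 1.17.1 for genes whose summed counts reached 10, at a threshold of 0.05, with Benjamini-Hochberg adjustment. The test was run on simulated Poisson counts, which hold counting error only. That run cannot show how the test behaves with further variation between libraries. R 4.3.3, edgeR 4.0.16 and DESeq2 1.42.0 gave scalings and edgeR's exact test. Quasi-likelihood tests have no residual degrees of freedom here. Ratios used log2(TPM + 0.1), which understates folds of low genes.

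The members and lists were chosen with earlier results of these data known. Named were the 9 genes, genes of the ratios, the 3 of highest TPM in each list, members called against their list and the 3 leading transcripts of each gene. Alternatives were other scalings, count filters, pseudocounts, posterior means, transcript classes and each library alone. Overlapping genes were listed from the annotation. FPKM was not used.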

Additional observations from a re-analysis of the deposited data

How the results depend on the processing

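The count of genes lower in replicate 2 stayed at 8 of 9 under DESeq2 size factors, total counts, spike-in counts, no count filter and a filter of 50 counts. For the 61 genes of the wider lists it ran from 33 to 38, with 60 tested, or 56 under the filter of 50 counts. Of all genes tested, 9.77% (spike-in counts) to 17.6% (filter of 50 counts) were lower under these settings. By edgeR's exact test the counts were 0 and 5, against 0.491% of all genes. In TPM with 0.1 added they were 1 and 9 past 1.5-fold, against 2.95% of genes averaging at least 1 TPM. All 27 log2 ratios of single genes under other scalings kept their call and 25 their direction. Actn3, not called, was reversed to 0.01 (0.0108) with total counts and 0.04 (0.0372) with spike-in counts. The summed level of the 9 genes was 319 TPM over transcripts typed protein-coding and 249 TPM over complete ones, against 399.8, and 345 to 454 TPM leaving out either library. The median protein-coding share was 96.9% of TPM and 99.3% of counts, and 95.8% to 97.3% leaving out either library. The ratio of Ttn to Neb was reversed to 1.81 over protein-coding types, and Tcap to Ttn to 0.13 (0.125) over complete models and to 0.13 (0.127) per kb of the longest. Complete models, counts per kb and the count share without each library were added after seeing the data. The leading transcript was the same in either library for all 9 genes, and by counts differed for Ttn and Neb. No paired analysis was possible because both libraries belong to 1 group. Of the 9 genes, Tcap, Myom2 and Actn3 rest on under 500 counts in each library, and Mybpc2 and Mybpc3 on under 10.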

Other observations

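Splicing of titin, nebulin and other sarcomere genes is known to be set by RNA-binding proteins, and 6 genes of such regulators were measured. Mbnl1 was the highest at 93.8 and 93.4 TPM in replicates 1 and 2, followed by Celf1 at 37.8 and 37.3 TPM and Rbfox2 at 35.6 and 36.3 TPM. Rbm24, a muscle splicing factor, stood at 7.86 and 8.13 TPM, Rbm20, known for its action on titin, at 3.54 and 4.19 TPM, and Rbfox1 at 1.81 and 1.93 TPM. By the exact binomial test 1 of the 6, Mbnl1 at a log2 ratio of −0.06, was lower in replicate 2 and 0 were higher. That share was near the 14.8% of all genes called lower, and the median was −0.04. EdgeR's exact test called 0, against 0.491% of all genes lower and 0.177% higher. At an unadjusted p under 0.05 it gave 0 lower, against 4.08% of all genes. For 6 genes a count of 0 is near these shares.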
